A study of Gallus gallus with 12 samples.

Results

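The comparison set the Müllerian duct of the chicken embryo at embryonic day 6.5 (E6.5 duct) against the posterior urogenital tissue at embryonic day 4.5 (E4.5-Post), which lies behind the region where the duct starts and served as tissue without duct. It took 6 of the 12 libraries of the series, 3 of each tissue, and all of the 24121 genes in the count table, of which 16603 had enough counts to be tested. The embryos were of the Hy-Line Brown line, were untreated and carried no engineered allele, and their sexes were not separated. E6.5 duct came from Hamburger-Hamilton stage 30, though the study's account of the pools gives a later stage. Each library pooled the left and right ducts of 4 embryos (12 embryos in all). The dissected duct held surface epithelium, mesenchyme and the inner duct epithelium. E4.5-Post came from stage 25, pooled 5 embryos per library (15 in all) and held mesonephros with mesentery. No E6.5 tissue without duct and no E4.5 tissue of pure duct was sampled, so that age and tissue cannot be told apart in any difference given here. E4.5-Post was only the posterior part of the urogenital system and E6.5 duct was the entire duct, so that the stretch of the body axis differed too.

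The Müllerian ducts are the embryonic tubes from which the oviduct of birds forms, and in mammals the oviducts, the uterus and part of the vagina. They arise from the coelomic epithelium that covers the mesonephros, the transient kidney of the embryo, and grow tailward beside the Wolffian duct, whose WNT9B signal they need in the mouse. Their mesenchyme carries the receptor of anti-Müllerian hormone, the signal under which the ducts regress in males later on. The mesonephros holds working nephrons, each made of a glomerulus with podocytes, the cells of its filter, and of tubules that take up solutes.

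The libraries were of similar depth. Counts on genes amounted to between 25395091 and 29604167 in E6.5 duct and between 27151244 and 28753538 in E4.5-Post. Values below are counts per 1000000 counts on genes (CPM), with the SD over the 3 libraries of a tissue, and log2 fold changes (log2FC) are E6.5 duct over E4.5-Post with their standard error. The count covers a whole gene with its introns, so that levels are compared within a gene only. Ribosomal RNA genes took between 0.402% and 1.05% of the counts in E6.5 duct and between 0.262% and 0.323% in E4.5-Post. Hemoglobin genes took 0.101% to 0.115% in E6.5 duct and 0.284% to 0.368% in E4.5-Post, and mitochondrial genes 4.55% to 5.42% in E6.5 duct and 3.10% to 3.75% in E4.5-Post.

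More genes were higher than lower in E6.5 duct. By edgeR, at the limits of the study (false discovery rate, FDR, of at most 0.05 and a change of at least 1.5-fold), 4197 genes were differentially expressed (DEGs), or 25.3% of the 16603 tested. Of these, 2739 rose (16.5% of the tested genes) and 1458 fell (8.78%). The median log2FC over all tested genes was 0.014, a value that the scaling of the libraries (TMM) holds near 0. The counts of each gene list below stand against these shares of 16.5% and 8.78%. The libraries of both tissues did not overlap in 10714 genes (64.5% of the tested), and in 4102 of the DEGs. A log2FC of at least 1 was reached by 1497 of the risen and 691 of the fallen DEGs, and one of at least 3 by 167 and 81. Summed over the risen DEGs, the mean level was 142344 CPM in E6.5 duct and 65298 CPM in E4.5-Post, and summed over the fallen DEGs it was 43277 CPM in E6.5 duct and 84236 CPM in E4.5-Post. The genes were chosen by their direction, so that the direction of these sums was set in advance. As these are bulk samples, a lower value can stem from fewer cells of a type or from less RNA per cell, and these cannot be told apart.

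**Figure D1:**
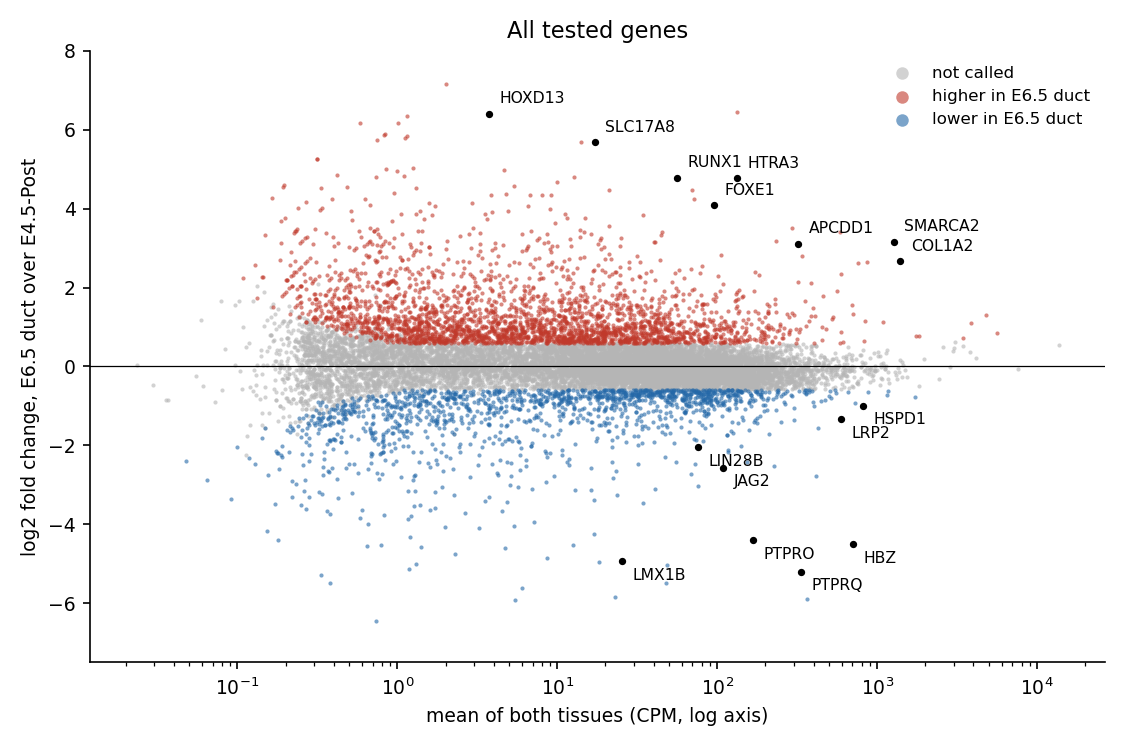
Each point is 1 tested gene, placed by the mean of both tissues (CPM, log axis) and by its log2FC, E6.5 duct over E4.5-Post, with DEGs that rose in red and DEGs that fell in blue. The black points are genes named in the text, and 12 genes without a count in all libraries of 1 tissue are not drawn, since their fitted fold change depends on the prior count.

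Among the genes that rose most steeply at sizeable levels were regulators of transcription and secreted proteins. RUNX1 (chromosome 1, positions 107353872 to 107506999 on the minus strand of GRCg6a), a runt-domain transcription factor, had 108, 109 and 109 CPM in E6.5 duct, against 4.05, 3.75 and 4.10 CPM in E4.5-Post. Its libraries hardly varied within a tissue and were far apart between tissues (log2FC 4.78 ± 0.12, FDR 9.14e-12). HTRA3 (chromosome 4, positions 80854901 to 80878094 on the plus strand), a secreted serine protease, had 268, 243 and 256 CPM in E6.5 duct, against 10.4, 8.69 and 9.22 CPM in E4.5-Post (log2FC 4.77 ± 0.14, FDR 1.78e-11). FOXE1 (chromosome Z, positions 70879535 to 70883835 on the minus strand), a forkhead transcription factor known for its part in thyroid development, had 175, 193 and 176 CPM in E6.5 duct, against 10.7, 10.3 and 11.2 CPM in E4.5-Post (log2FC 4.09 ± 0.11, FDR 9.14e-12). In each of these genes the lowest E6.5 duct library was far above the highest E4.5-Post library. SMARCA2 (chromosome Z, positions 26326600 to 26448676 on the plus strand), an ATPase subunit of SWI/SNF chromatin remodelling complexes, had 2188, 2193 and 2483 CPM in E6.5 duct, against 269, 247 and 258 CPM in E4.5-Post. It changed by a smaller factor (log2FC 3.16 ± 0.12, FDR 8.00e-11), but it was among the 10 DEGs with the largest gain in CPM. PTBP3, an RNA-binding regulator of splicing that is also on the Z chromosome, had 1069 ± 59.9 CPM in E6.5 duct and 101 ± 11.5 CPM in E4.5-Post (log2FC 3.41 ± 0.14). SLC17A8, a vesicular glutamate transporter, was low in E4.5-Post, with 36.8, 36.6 and 27.3 CPM in E6.5 duct, against 0.700, 0.565 and 0.696 CPM in E4.5-Post (log2FC 5.68 ± 0.23, FDR 1.70e-10). PCSK1, a protease that cuts prohormones, had 24.6 ± 2.60 CPM in E6.5 duct and 0.878 ± 0.0722 CPM in E4.5-Post (log2FC 4.81 ± 0.13).

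RUNX1, HTRA3, FOXE1 and SMARCA2 are among 11 genes that the study picked from these samples for its checks on duct tissue, and all 11 rose by edgeR, by voom (limma) and by DESeq2, with a median log2FC of 2.34. As they were picked on these libraries, their direction is not independent evidence. PRICKLE1, a planar cell polarity protein, had 196 ± 2.55 CPM in E6.5 duct and 62.5 ± 4.14 CPM in E4.5-Post (log2FC 1.66 ± 0.072). TSHZ3, a zinc finger transcription factor with a known part in ureter smooth muscle, had 114 ± 1.75 CPM in E6.5 duct and 49.7 ± 6.47 CPM in E4.5-Post (log2FC 1.21 ± 0.081). The abundant AvBD10, an avian beta-defensin, had 5041, 5732 and 5009 CPM in E6.5 duct, against 2735, 2302 and 2400.2 CPM in E4.5-Post (log2FC 1.09 ± 0.10, FDR 3.13e-07). TFPI2, a secreted inhibitor of serine proteases, was named after its values were seen, with 538 ± 31.1 CPM in E6.5 duct and 47.4 ± 5.26 CPM in E4.5-Post (log2FC 3.51 ± 0.11).

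**Figure D2:**
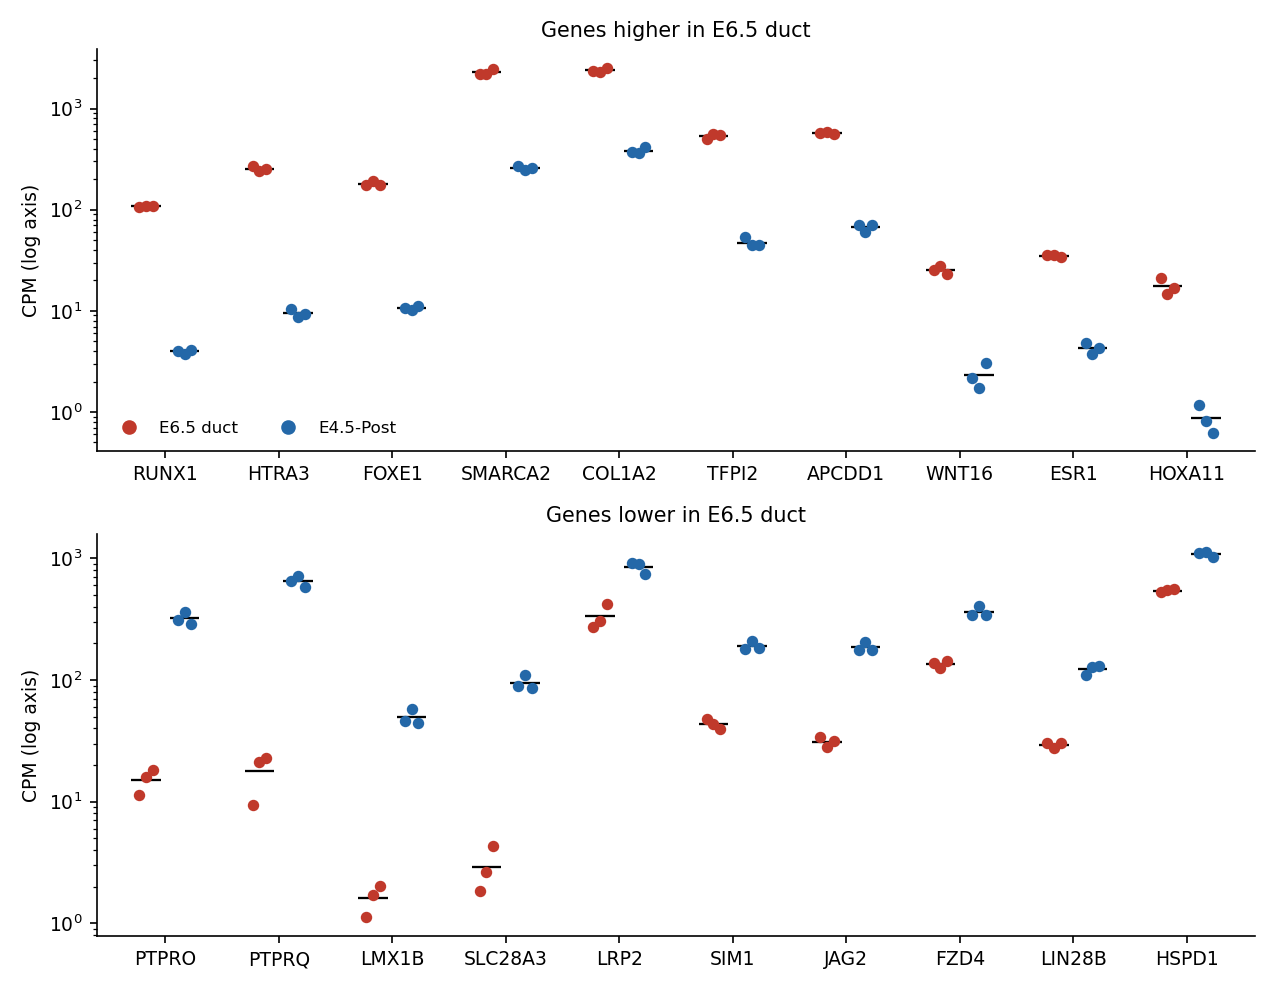
CPM (log axis) of each library for 10 genes that rose and 10 that fell, with E6.5 duct in red to the left of E4.5-Post in blue and a line at the mean of the 3 libraries. The genes were taken from DEGs whose libraries do not overlap between the tissues (64.5% of all tested genes do not), and PTPRQ spreads most within E6.5 duct (9.36 to 22.6 CPM).

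Genes of the fibrillar and interstitial matrix, which give connective tissue its strength, rose as a block. Of 42 tested members, 32 rose (76.2%, against 16.5% of all tested genes) and none fell, with a median log2FC of 1.15. None of them was lower at an unadjusted edgeR p under 0.05 either, or by voom or DESeq2. Their summed level was 16278 to 17344 CPM in E6.5 duct and 7504 to 7700 CPM in E4.5-Post. COL1A2, POSTN, TGFBI and LOXL2 in this list were picked by the study on these libraries. Their part in the share and the sum is not independent evidence. COL1A2, a chain of type I collagen, had 2379.9, 2303 and 2551 CPM in E6.5 duct, against 373, 362 and 416 CPM in E4.5-Post (log2FC 2.66 ± 0.10, FDR 9.68e-11). COL1A1, the other chain of the same collagen, had 1285, 1409 and 1247 CPM in E6.5 duct, against 204, 231 and 205 CPM in E4.5-Post and changed by the same factor (log2FC 2.63 ± 0.17). Neither chain overlapped between the tissues. POSTN (periostin), which binds collagen in growing connective tissue, had 996, 944 and 1013 CPM in E6.5 duct, against 211, 183 and 195 CPM in E4.5-Post (log2FC 2.34 ± 0.077). THBS1, a thrombospondin, had 889 ± 33.7 CPM in E6.5 duct and 236 ± 10.2 CPM in E4.5-Post (log2FC 1.92 ± 0.065). COL3A1, the chain of type III collagen, had 1033 ± 57.3 CPM in E6.5 duct and 353 ± 5.60 CPM in E4.5-Post (log2FC 1.56 ± 0.072). ELN (elastin), a protein of elastic fibres, had 87.5, 97.0 and 90.2 CPM in E6.5 duct, against 17.6, 17.3 and 18.3 CPM in E4.5-Post (log2FC 2.38 ± 0.07). LOX, the enzyme that cross-links collagen and elastin, had 48.2, 49.1 and 47.5 CPM in E6.5 duct, against 11.05, 11.1 and 9.32 CPM in E4.5-Post (log2FC 2.21 ± 0.10). The small leucine-rich proteoglycan OGN rose the most of the list (34.7 ± 1.65 CPM in E6.5 duct and 5.24 ± 2.82 CPM in E4.5-Post; log2FC 2.73 ± 0.23), and DCN (log2FC 1.04 ± 0.054) and LUM (log2FC 1.16 ± 0.087), proteoglycans of the same family, rose less. FN1 (fibronectin, 0.35 ± 0.16), VCAN (versican, 0.17 ± 0.074) and the collagen chaperone SERPINH1 (0.08 ± 0.076) did not pass the limits, so that the rise did not extend to the whole list.

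The same libraries held more transcripts of a few proteins of contractile and skeletal connective tissue. Of 25 smooth muscle markers 9 rose and 1 fell (none without the third E4.5-Post library; median log2FC 0.22), with a sum of 2246 to 2331 CPM in E6.5 duct and 1969 to 2000 CPM in E4.5-Post. SYNPO2, an actin-binding protein of muscle, had 131 ± 7.34 CPM in E6.5 duct and 25.6 ± 3.07 CPM in E4.5-Post (log2FC 2.36 ± 0.091). ACTG2, the enteric smooth muscle actin, had 20.1 ± 3.92 CPM in E6.5 duct and 6.52 ± 0.635 CPM in E4.5-Post (log2FC 1.64 ± 0.18). ACTA2, the actin that marks early smooth muscle, had 156 ± 4.87 CPM in E6.5 duct and 159 ± 5.37 CPM in E4.5-Post (log2FC -0.016 ± 0.10, not a DEG). Of 21 sclerotome and cartilage markers 7 rose and 8 fell (median log2FC -0.22), with a sum of 1048 to 1113 CPM in E6.5 duct and 565 to 636 CPM in E4.5-Post. The sum was carried by COL2A1 (log2FC 0.93 ± 0.10) and HAPLN1 (log2FC 1.34 ± 0.073), and the defining transcription factor PAX1 fell (log2FC -3.26 ± 0.63, and -3.92 without the first E6.5 duct library). The part of these cell types in the matrix genes was not tested.

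Of 31 basement membrane genes 19 were not called, 7 were higher (22.6%, against 16.5% of all tested genes) and 5 lower (16.1%, against 8.78%), with a median log2FC of 0.06. COL15A1, a collagen that sits where basement membranes meet connective tissue, had 30.03, 29.1 and 29.1 CPM in E6.5 duct, against 2.21, 3.99 and 2.40 CPM in E4.5-Post (log2FC 3.37 ± 0.17). EGFLAM, a binding partner of dystroglycan also called pikachurin, had 708 ± 33.8 CPM in E6.5 duct and 205 ± 6.44 CPM in E4.5-Post (log2FC 1.79 ± 0.068). TINAG, a tubule basement membrane protein, had 12.9 ± 4.75 CPM in E6.5 duct and 0.632 ± 0.156 CPM in E4.5-Post (log2FC 4.35 ± 0.32). COL4A3 had 3.55, 3.11 and 4.17 CPM in E6.5 duct, against 21.0, 20.4 and 17.04 CPM in E4.5-Post (log2FC -2.42 ± 0.13). COL4A4 had 3.24, 3.66 and 4.61 CPM in E6.5 duct, against 22.6, 20.03 and 16.6 CPM in E4.5-Post (log2FC -2.36 ± 0.16). These chains, which form the mature collagen IV network of the glomerulus together with COL4A5 (0.12 ± 0.069, not a DEG), fell by nearly the same factor and stood beside a fall of the podocyte markers given below, whose part was not tested. The general collagen IV chains COL4A1 (log2FC -0.75 ± 0.083) and COL4A2 (log2FC -0.69 ± 0.088) fell less.

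HOX genes, which set position along the body axis and lie in clusters in the order of the regions they specify, changed mainly at the posterior end of the clusters. The 9 tested paralogs numbered 10 to 13 all rose (median log2FC 4.07), and of the 23 tested paralogs numbered 1 to 9 only 2 rose and 2 fell (median 0.145). The tissues cover different stretches of the body axis, and the part of this in the HOX genes was not tested. In the HOXA cluster 4 of 8 tested genes rose and 1 fell (median log2FC 0.70), in the HOXB cluster none of 9 rose and 1 fell (0.096), in the HOXC cluster 3 of 7 rose and none fell (0.37), and in the HOXD cluster 4 of 8 rose and none fell (0.79). At an unadjusted edgeR p under 0.05, 4 HOXB genes were higher, no HOXC gene was lower and 1 HOXD gene, HOXD8, was lower. HOXD8 was called by voom and DESeq2, and by edgeR without the first or the second E6.5 duct library (-0.64 without the second) or without the third E4.5-Post library (-0.62).

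HOXA10 had 40.9, 34.9 and 36.5 CPM in E6.5 duct, against 8.18, 8.34 and 11.4 CPM in E4.5-Post (log2FC 2.02 ± 0.47). HOXA11 had 21.1, 14.5 and 16.7 CPM in E6.5 duct, against 1.18, 0.813 and 0.626 CPM in E4.5-Post (log2FC 4.33 ± 0.52). HOXA13 had 3.04, 2.48 and 2.05 CPM in E6.5 duct, against 0.147, 0.106 and 0.0696 CPM in E4.5-Post (log2FC 4.52 ± 0.52). In mammals these genes pattern the uterus, cervix and vagina along the duct. HOXA11 lies on chromosome 2, positions 32662555 to 32666093 on the minus strand, and in none of the 3 genes did the tissues overlap. In the HOXD cluster the log2FC was 1.27 ± 0.33 for HOXD10, 4.07 ± 0.50 for HOXD11 and 4.97 ± 0.49 for HOXD12. DESeq2 did not call HOXA10 (adjusted p 0.0667) or HOXD10 (0.087), and edgeR and voom did. The fits share their estimate of the spread over all tissues of the series. Both genes varied widely in the anterior tissue of embryonic day 4.5 (E4.5-Ant, described below), with 6.07 ± 8.34 CPM for HOXA10 and 2.85 ± 3.39 CPM for HOXD10. The part of that spread in the SE and p-values of these genes was not tested. HOXD13 had 9.42, 6.77 and 5.87 CPM in E6.5 duct, against 0.147, 0 and 0.104 CPM in E4.5-Post (log2FC 6.41 ± 0.61, and 7.03 without the first E4.5-Post library, which holds the highest of its few counts in that tissue). HOXC10 had 22.1, 17.3 and 18.1 CPM in E6.5 duct, against 2.95, 2.47 and 3.65 CPM in E4.5-Post (log2FC 2.67 ± 0.55), and HOXC11, at 1.38, 0.962 and 0.827 CPM in E6.5 duct and 0.184, 0.0707 and 0.0348 CPM in E4.5-Post, had a log2FC of 3.44 ± 0.61 that became 4.24 without the first E4.5-Post library. HOXB13 was too low to be tested, with 0.169, 0.259 and 0.315 CPM in E6.5 duct libraries and no count in the 3 E4.5-Post libraries, where the floor of 3 counts corresponds to 0.11 CPM. EVX1, a homeobox gene beside HOXA13 that was named after its values were seen, had 1.79, 0.962 and 1.77 CPM in E6.5 duct, against 0, 0 and 0 CPM in E4.5-Post, at least 13.7-fold higher against that floor.

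The central and anterior paralogs differed less. HOXA7 had 28.2, 27.2 and 27.3 CPM in E6.5 duct, against 59.4, 60.3 and 61.3 CPM in E4.5-Post (log2FC -1.12 ± 0.11, FDR 9.36e-07). HOXB9 had 34.3, 34.9 and 35.1 CPM in E6.5 duct, against 66.3, 70.2 and 71.9 CPM in E4.5-Post (log2FC -0.99 ± 0.24, FDR 2.41e-03). Both fell without overlap of the tissues, whereas HOXA9 (log2FC 0.20 ± 0.26) and HOXD9 (log2FC -0.15 ± 0.13) did not pass the limits, and HOXD8, at -0.58 ± 0.059, lay just short of the fold limit. HOXA2 (log2FC 0.84 ± 0.11) and HOXC4 (log2FC 1.01 ± 0.20) rose. HOXA4, HOXA5, HOXA6 and HOXD4 had no count in any of the 6 libraries. They lie within the annotated spans of HOXA3 and HOXD3, and the counting command gave no option for reads that overlap several genes, so that nothing can be read from their zeros.

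**Figure D3:**
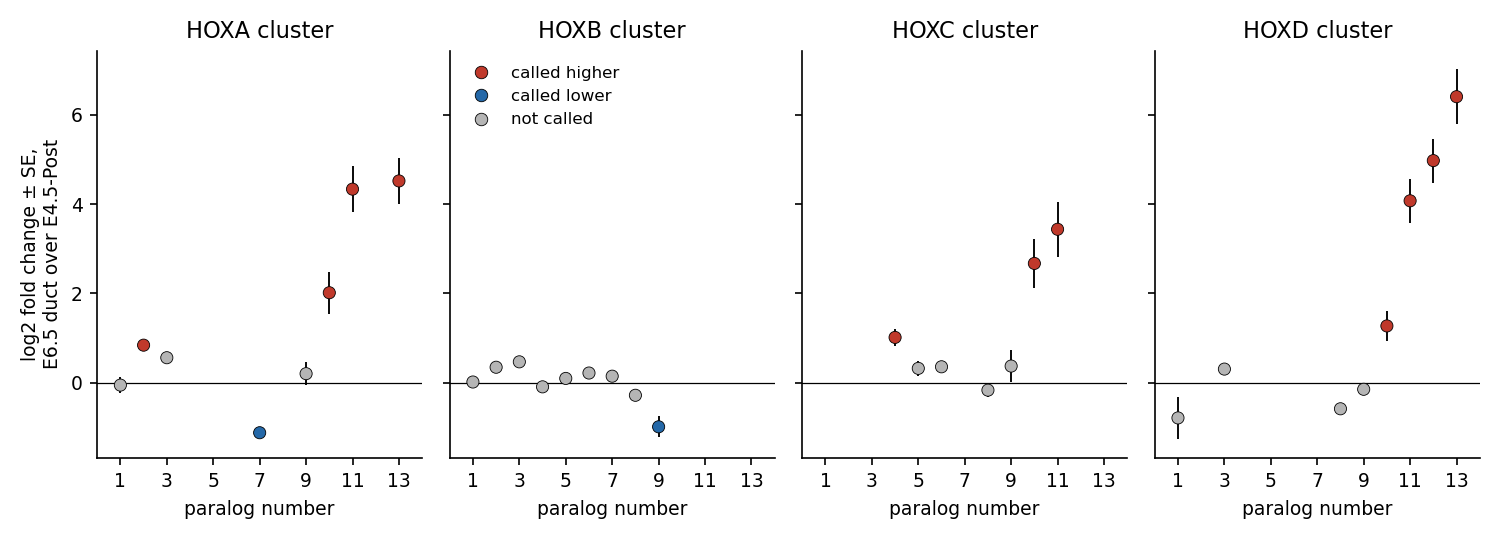
The log2FC, E6.5 duct over E4.5-Post, with its SE as a bar, of each tested HOX gene by paralog number in the 4 clusters. The paralogs numbered 10 to 13 in the HOXA, HOXC and HOXD clusters lie between 1.27 and 6.41, while most of the others lie near 0.

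The list of transcription factors covered the duct and the intermediate mesoderm, the tissue that gives rise to kidney, gonad and ducts. Of 59 tested, 25 rose (42.4%, against 16.5% of all tested genes) and 8 fell (13.6%, against 8.78%; median log2FC 0.29). RUNX1, FOXE1, OSR1 and TSHZ3 in this list were picked by the study on these libraries. Their part in the share that rose is not independent evidence. DMRT1, the Z-linked gene needed for testis development in birds, had 15.3, 20.5 and 17.96 CPM in E6.5 duct, against 3.72, 3.604 and 3.69 CPM in E4.5-Post (log2FC 2.30 ± 0.17), and its neighbours DMRT3 (log2FC 4.34 ± 0.24) and DMRT2 (log2FC 4.67 ± 0.29) rose by larger factors. The shares of males and females in the pools are not given, and their part in Z-linked genes was not tested. The summed level of 7 genes of the W chromosome, which only females carry, ranged from 531 to 991 CPM in E6.5 duct and from 730 to 1046 CPM in E4.5-Post, so that the tissues overlapped. Of these 7 genes none rose (also at an unadjusted p under 0.05, and by voom and DESeq2) and 1 fell (2 without the first E6.5 duct library; median log2FC -0.08). Over all 40 tested genes placed on the W chromosome, 4 rose and 3 fell (median log2FC 0.118). On the Z chromosome 151 of 759 tested genes rose (19.9%) and 70 fell (9.22%; median log2FC 0.007). GATA2, a zinc finger factor with known parts in the urogenital ridge and in blood, had 439, 422 and 396 CPM in E6.5 duct, against 168, 146 and 178 CPM in E4.5-Post (log2FC 1.37 ± 0.079). OSR1, an early factor of intermediate mesoderm, had 64.0, 80.2 and 73.0 CPM in E6.5 duct, against 21.3, 19.3 and 24.9 CPM in E4.5-Post (log2FC 1.74 ± 0.10). GATA6 (log2FC 1.81 ± 0.14), MSX2 (log2FC 1.84 ± 0.17), LEF1 (log2FC 1.37 ± 0.076) and TWIST2 (log2FC 2.21 ± 0.16) rose as well, and so did EMX2 (log2FC 0.66 ± 0.057), which the mouse needs to form its ducts.

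Factors that the duct shares with the kidney did not move together. PAX2 had 318 ± 15.4 CPM in E6.5 duct and 362 ± 9.25 CPM in E4.5-Post (log2FC -0.18 ± 0.076). WT1, which the coelomic epithelium and podocytes share, had 441 ± 13.1 CPM in E6.5 duct and 363 ± 9.70 CPM in E4.5-Post (log2FC 0.29 ± 0.049). Neither was a DEG. LHX1 (log2FC -0.83 ± 0.076) and SALL1 (log2FC -0.70 ± 0.061), a regulator of nephron progenitors, fell. NR5A1 (steroidogenic factor 1), which marks the gonad and the adrenal cortex, had 0.101, 0.259 and 0.118 CPM in E6.5 duct, against 3.83, 5.62 and 3.83 CPM in E4.5-Post (log2FC -4.75 ± 0.38). LHX9, a factor of the gonadal ridge, was close to absent from E6.5 duct, with 0, 0.0370 and 0 CPM in E6.5 duct and 1.33, 2.61 and 0.452 CPM in E4.5-Post and, as E6.5 duct held hardly any counts of it, a ratio of 119.8 with a counting interval of 21.1 to 4771, E4.5-Post over E6.5 duct. Its log2FC -6.46 ± 1.101 became -8.37 without the second E6.5 duct library, which holds its only count there, and -5.725 without the second E4.5-Post library. The gonad markers as a whole went both ways, with 6 of 16 higher and 3 lower (median log2FC 0.37) and a sum of 109 to 118 CPM in E6.5 duct against 64.5 to 74.1 CPM in E4.5-Post, and FSHR, the receptor of follicle-stimulating hormone, was among those that rose (9.84 ± 0.860 CPM in E6.5 duct and 1.62 ± 0.224 CPM in E4.5-Post; log2FC 2.61 ± 0.18). Risen members that are not particular to the gonad add to this sum. DMRT1 (17.9 CPM in E6.5 duct and 3.67 CPM in E4.5-Post) and RSPO1 (15.7 CPM in E6.5 duct and 4.91 CPM in E4.5-Post) are also in the list of the coelomic epithelium, and WNT4 is also in that of WNT ligands.

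Most WNT ligands, secreted signals of development, were higher. Of 15 tested WNT ligands 10 rose and none fell (median log2FC 1.004). By edgeR 3 were lower at an unadjusted p under 0.05, and 2 fell without the third E6.5 duct library and 1 without the second or the third E4.5-Post library, while voom and DESeq2 called none. WNT16 (chromosome 1, positions 23385216 to 23397661 on the minus strand) had 25.4, 27.8 and 23.2 CPM in E6.5 duct, against 2.17, 1.73 and 3.03 CPM in E4.5-Post (log2FC 3.47 ± 0.17, FDR 9.69e-10). WNT6 had 32.1, 35.2 and 29.5 CPM in E6.5 duct, against 3.98, 2.90 and 4.45 CPM in E4.5-Post (log2FC 3.10 ± 0.14). WNT7A, which the mouse duct epithelium uses to pattern its mesenchyme, had 8.44, 10.8 and 8.11 CPM in E6.5 duct, against 0.442, 0.353 and 0.522 CPM in E4.5-Post (log2FC 4.37 ± 0.20). WNT7B (log2FC 3.83 ± 0.27) and WNT10A (log2FC 3.505 ± 0.47) rose by similar factors. WNT4, which the mouse needs for the duct to form, had 34.3 ± 0.882 CPM in E6.5 duct and 19.98 ± 1.69 CPM in E4.5-Post (log2FC 0.79 ± 0.13). WNT5A, a ligand of the planar polarity branch, had 76.8 ± 2.18 CPM in E6.5 duct and 45.2 ± 7.22 CPM in E4.5-Post (log2FC 0.78 ± 0.088). WNT9B, the Wolffian duct signal, had 111 ± 13.7 CPM in E6.5 duct and 92.1 ± 5.71 CPM in E4.5-Post (log2FC 0.28 ± 0.077) and was not a DEG, nor was WNT11 (log2FC -0.19 ± 0.078).

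Among 55 WNT receptors, antagonists and targets, 22 rose and 4 fell (median log2FC 0.54). PRICKLE1, given above as picked by the study on these libraries, is among those that rose. The membrane-bound antagonist APCDD1 had 571, 592 and 566 CPM in E6.5 duct, against 70.6, 59.8 and 70.8 CPM in E4.5-Post (log2FC 3.11 ± 0.11, FDR 4.72e-11), so that its lowest E6.5 duct library was far above its highest E4.5-Post library. The secreted antagonist WIF1 had 13.3 ± 0.835 CPM in E6.5 duct and 1.99 ± 0.177 CPM in E4.5-Post (log2FC 2.74 ± 0.17). LGR5, a receptor of R-spondins and itself a WNT target, had 272, 260.5 and 245 CPM in E6.5 duct, against 92.8, 102 and 111 CPM in E4.5-Post (log2FC 1.36 ± 0.078). AXIN2, a feedback inhibitor that is widely used as a readout of the canonical pathway, had 62.8, 58.4 and 57.2 CPM in E6.5 duct, against 29.2, 27.5 and 30.6 CPM in E4.5-Post (log2FC 1.04 ± 0.066). The other targets SP5 (log2FC 1.69 ± 0.21) and NKD1 (log2FC 1.27 ± 0.091) and the ligand RSPO1 (log2FC 1.69 ± 0.13) rose, and the co-receptor LRP5 was not a DEG (-0.44 ± 0.072). FZD4 had 138, 125 and 144 CPM in E6.5 duct, against 343, 402 and 345 CPM in E4.5-Post (log2FC -1.41 ± 0.085, FDR 6.67e-09). It fell together with FZD8 (log2FC -1.15 ± 0.12), another frizzled receptor, while FZD10 rose (log2FC 1.43 ± 0.089).

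Of 57 tested genes of the TGF-beta, BMP and AMH pathways 22 rose and 6 fell (median log2FC 0.34). AMHR2, the receptor of anti-Müllerian hormone, had 65.3, 67.6 and 63.6 CPM in E6.5 duct, against 38.0, 33.2 and 33.4 CPM in E4.5-Post (log2FC 0.92 ± 0.065, FDR 3.08e-08). Its libraries did not overlap, and the hormone gene itself was too low to be tested. GDF7, a BMP-type ligand, had 39.9, 37.4 and 33.0 CPM in E6.5 duct, against 4.13, 5.58 and 5.63 CPM in E4.5-Post (log2FC 2.85 ± 0.15). INHBA, which codes for the activin subunit beta A, had 7.43, 5.96 and 4.41 CPM in E6.5 duct, against 0.479, 0.707 and 0.869 CPM in E4.5-Post (log2FC 3.12 ± 0.23). RGMB, a BMP co-receptor, had 173, 193 and 186 CPM in E6.5 duct, against 25.7, 24.9 and 28.4 CPM in E4.5-Post (log2FC 2.81 ± 0.10), and the BMP antagonist CHRDL1 37.7 ± 7.34 CPM in E6.5 duct and 5.70 ± 1.30 CPM in E4.5-Post (log2FC 2.73 ± 0.21). TGFB2 rose (log2FC 1.19 ± 0.091), and TGFB3 was not a DEG (log2FC 0.35 ± 0.067). BMP5 had 19.0 ± 1.80 CPM in E6.5 duct and 46.3 ± 5.75 CPM in E4.5-Post (log2FC -1.27 ± 0.091) and BMP6 15.8 ± 0.821 CPM in E6.5 duct and 31.0 ± 2.78 CPM in E4.5-Post (log2FC -0.96 ± 0.09), and both fell, as did the antagonist GREM1 (log2FC -1.42 ± 0.20). The type I and type II receptors TGFBR1 (0.13 ± 0.066), TGFBR2 (-0.18 ± 0.075) and BMPR2 (-0.075 ± 0.082) lay close to 0.

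In the list of FGFs and other signals of receptor tyrosine kinases, 27 of 66 tested genes rose and 9 fell (median log2FC 0.45). HGF, the mesenchymal ligand of MET, had 91.1, 78.3 and 83.4 CPM in E6.5 duct, against 20.5, 17.8 and 19.6 CPM in E4.5-Post (log2FC 2.14 ± 0.069), and MET was not a DEG (14.996 ± 1.05 CPM in E6.5 duct and 13.8 ± 1.07 CPM in E4.5-Post; log2FC 0.13 ± 0.10). FGF10, a mesenchymal ligand in many budding organs, had 27.8, 24.2 and 27.7 CPM in E6.5 duct, against 7.03, 4.28 and 7.06 CPM in E4.5-Post (log2FC 2.13 ± 0.19). KIT, the receptor of stem cell factor, had 34.8, 32.8 and 32.5 CPM in E6.5 duct, against 4.05, 4.42 and 4.38 CPM in E4.5-Post (log2FC 2.97 ± 0.13, FDR 3.96e-10), while its ligand KITLG was not a DEG (log2FC 0.48 ± 0.091). The FGF target genes ETV4 (85.7 ± 3.52 CPM in E6.5 duct and 24.4 ± 1.48 CPM in E4.5-Post; log2FC 1.82 ± 0.085) and ETV5 (log2FC 0.78 ± 0.063) rose, and FGFR1 (log2FC 0.69 ± 0.053) rose a little. FGF8, which nephron precursors use, had 0.574, 0.148 and 0.315 CPM in E6.5 duct, against 5.52, 6.64 and 6.29 CPM in E4.5-Post (log2FC -4.10 ± 0.39, and -4.71 without the first E6.5 duct library). GDNF, which guides the outgrowth of the ureteric bud, had 49.4 ± 1.27 CPM in E6.5 duct and 106 ± 3.66 CPM in E4.5-Post (log2FC -1.09 ± 0.076). VEGFA, which podocytes secrete, had 29.3, 32.5 and 28.8 CPM in E6.5 duct, against 88.8, 93.4 and 81.2 CPM in E4.5-Post (log2FC -1.53 ± 0.066). IGF2 (log2FC -1.50 ± 0.069), FGF2 (log2FC -1.90 ± 0.13) and FGFRL1 (log2FC -1.74 ± 0.14) fell likewise.

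All members of the Hedgehog list that passed the limits were higher, 10 of 18 tested (median log2FC 0.97). At an unadjusted edgeR p under 0.05 the 2 genes DHH and PTCH1 were lower, DHH alone fell without the second E6.5 duct library (-0.61) or without the third E4.5-Post library (-0.67), and voom and DESeq2 called none lower. SHH had 13.1, 9.91 and 10.2 CPM in E6.5 duct, against 4.38, 3.89 and 4.31 CPM in E4.5-Post (log2FC 1.41 ± 0.31). IHH had 1.22, 1.37 and 1.30 CPM in E6.5 duct, against 0.147, 0.353 and 0.104 CPM in E4.5-Post (log2FC 2.66 ± 0.34, and 3.33 without the second E4.5-Post library, so that its size rests on few counts). The co-receptor BOC had 225 ± 7.76 CPM in E6.5 duct and 86.8 ± 7.55 CPM in E4.5-Post (log2FC 1.39 ± 0.072), HHIP, which binds the ligands and is induced by them, 46.6 ± 5.24 CPM in E6.5 duct and 16.6 ± 2.75 CPM in E4.5-Post (log2FC 1.504 ± 0.12), GLI1 28.8 ± 1.33 CPM in E6.5 duct and 15.7 ± 0.599 CPM in E4.5-Post (log2FC 0.89 ± 0.074) and GLI2 70.8 ± 2.18 CPM in E6.5 duct and 33.1 ± 2.57 CPM in E4.5-Post (log2FC 1.11 ± 0.11). PTCH1, the main receptor and a target of the pathway, was not a DEG (107 ± 8.67 CPM in E6.5 duct and 128 ± 5.95 CPM in E4.5-Post; log2FC -0.25 ± 0.071).

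Notch genes went the other way, with 1 of 20 higher (2 without the second E6.5 duct library) and 9 lower (median log2FC -0.61). The ligand JAG2 had 33.7, 28.0 and 31.7 CPM in E6.5 duct, against 177, 204 and 177 CPM in E4.5-Post (log2FC -2.57 ± 0.11, FDR 2.21e-10). JAG1, the other Jagged ligand, had 44.6, 46.8 and 50.6 CPM in E6.5 duct, against 123, 149 and 130.4 CPM in E4.5-Post (log2FC -1.49 ± 0.086). DLL1 (log2FC -0.75 ± 0.10), of the Delta family, and the target genes HES5 (log2FC -2.51 ± 0.20), HEY2 (log2FC -1.77 ± 0.24), HEY1 (log2FC -1.21 ± 0.12) and HEYL (log2FC -1.10 ± 0.10) fell too. The receptors NOTCH1 (151 ± 4.65 CPM in E6.5 duct and 199 ± 21.3 CPM in E4.5-Post; log2FC -0.39 ± 0.089) and NOTCH2 (342 ± 24.1 CPM in E6.5 duct and 237 ± 10.9 CPM in E4.5-Post; log2FC 0.54 ± 0.083, and 0.60 as a DEG without the second E6.5 duct library) and the target HES1 (log2FC 0.43 ± 0.091) did not pass the limits. HEY1 and HEY2 are also known from blood vessels, and Notch acts in nephron formation. In the same libraries 9 of 27 endothelial markers fell and 3 rose (median log2FC -0.35), with a sum of 1514 to 1569 CPM in E6.5 duct and 1779 to 1933 CPM in E4.5-Post, and the pan-endothelial CDH5 had 196 ± 15.2 CPM in E6.5 duct and 277 ± 12.6 CPM in E4.5-Post (log2FC -0.49 ± 0.073, not a DEG). Their part in the Notch genes was not tested.

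In the retinoic acid pathway 7 of 19 genes rose and 1 fell (median log2FC 0.38). The synthesis enzymes differed in direction. ALDH1A2, the main enzyme of early mesoderm and the coelomic epithelium, had 714, 660.3 and 673 CPM in E6.5 duct, against 1070.3, 1102 and 1071 CPM in E4.5-Post (log2FC -0.65 ± 0.057) and fell, whereas ALDH1A3 had 151, 148 and 151 CPM in E6.5 duct, against 38.2, 46.9 and 42.0 CPM in E4.5-Post (log2FC 1.83 ± 0.074, FDR 1.64e-10) and ALDH1A1 429 ± 33.6 CPM in E6.5 duct and 225 ± 18.6 CPM in E4.5-Post (log2FC 0.94 ± 0.08), and both rose. The retinol transporter STRA6 (119 ± 5.37 CPM in E6.5 duct and 40.8 ± 1.70 CPM in E4.5-Post; log2FC 1.56 ± 0.057), the binding protein CRABP2 (log2FC 1.46 ± 0.12) and the degrading enzyme CYP26A1 (log2FC 1.38 ± 0.18), which retinoic acid induces in many tissues, rose as well.

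Guidance molecules, known from growing axons and also active in epithelia and vessels, had 21 of 62 higher (33.9%, against 16.5% of all tested genes) and 7 lower (11.3%, against 8.78%; median log2FC 0.37). NTN1 (netrin 1) had 27.6, 29.0 and 27.8 CPM in E6.5 duct, against 4.68, 4.45 and 6.78 CPM in E4.5-Post (log2FC 2.42 ± 0.12). UNC5D, of the netrin receptor family, had 63.9, 61.8 and 53.4 CPM in E6.5 duct, against 11.8, 12.2 and 11.2 CPM in E4.5-Post (log2FC 2.36 ± 0.081). SLIT1 had 152, 175 and 164 CPM in E6.5 duct, against 42.1, 49.1 and 39.6 CPM in E4.5-Post (log2FC 1.92 ± 0.086), whereas SLIT2 was not a DEG (log2FC -0.1 ± 0.076). The transmembrane semaphorins SEMA6D (216 ± 11.7 CPM in E6.5 duct and 56.7 ± 1.21 CPM in E4.5-Post; log2FC 1.94 ± 0.072) and SEMA5A (log2FC 1.77 ± 0.10) rose, and the secreted SEMA3C (log2FC -1.20 ± 0.073) and the semaphorin and VEGF co-receptor NRP1 (146 ± 5.14 CPM in E6.5 duct and 316 ± 23.1 CPM in E4.5-Post; log2FC -1.10 ± 0.093) fell.

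Genes of epithelial junctions and keratins were called at shares near those of all tested genes, with 11 of 46 higher (23.9%, against 16.5%) and 5 lower (10.9%, against 8.78%; median log2FC 0.069). CDH1 (E-cadherin), general to epithelia, had 198 ± 7.33 CPM in E6.5 duct and 199 ± 11.5 CPM in E4.5-Post, with a log2FC whose sign changed with the scaling, and EPCAM 174 ± 10.7 CPM in E6.5 duct and 199.8 ± 0.385 CPM in E4.5-Post (log2FC -0.19 ± 0.049, not a DEG). CDH2 (N-cadherin) had 573, 531 and 541 CPM in E6.5 duct, against 205, 252 and 222 CPM in E4.5-Post (log2FC 1.29 ± 0.076, FDR 5.20e-09). CLDN3 (log2FC 1.04 ± 0.091), KRT19 (log2FC 1.06 ± 0.13), KRT7 (log2FC 0.86 ± 0.18) and KRT14 (log2FC 1.40 ± 0.16) rose, and KRT15, a keratin of basal cells in stratified epithelia, had 4.999, 5.40 and 5.04 CPM in E6.5 duct, against 0.479, 0.601 and 0.835 CPM in E4.5-Post (log2FC 3.01 ± 0.21). The claudins CLDN1 (266 ± 8.01 CPM in E6.5 duct and 536 ± 28.9 CPM in E4.5-Post; log2FC -0.998 ± 0.056), CLDN10 (log2FC -0.83 ± 0.12) and, from the thick ascending limb of the mammalian kidney, CLDN16 (11.2 ± 0.707 CPM in E6.5 duct and 42.2 ± 4.70 CPM in E4.5-Post; log2FC -1.90 ± 0.11) and CLDN19 (log2FC -1.38 ± 0.20) fell. Of 25 genes of the coelomic epithelium and mesothelium, 12 rose and 4 fell (median log2FC 0.53). PDPN (podoplanin) had 28.1 ± 0.555 CPM in E6.5 duct and 9.74 ± 1.004 CPM in E4.5-Post (log2FC 1.54 ± 0.10), and MSLN (mesothelin) fell (3.10 ± 0.256 CPM in E6.5 duct and 5.77 ± 0.690 CPM in E4.5-Post; log2FC -0.89 ± 0.13).

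ESR1, the estrogen receptor alpha, had 35.9, 35.4 and 33.8 CPM in E6.5 duct, against 4.79, 3.78 and 4.31 CPM in E4.5-Post (log2FC 3.04 ± 0.10, FDR 4.91e-11), so that each E6.5 duct library held several times the level of each E4.5-Post library. The progesterone receptor PGR (log2FC 0.28 ± 0.10) and the estrogen receptor beta, ESR2 (log2FC -0.28 ± 0.14), were not DEGs. In the whole list of steroid receptors and synthesis 4 of 20 genes rose and 5 fell (median log2FC -0.064), and CYP11A1, the enzyme that starts steroid synthesis, fell at a low level (0.431 ± 0.104 CPM in E6.5 duct and 1.31 ± 0.309 CPM in E4.5-Post; log2FC -1.60 ± 0.37). Of 9 adrenal cortex markers 1 rose and 4 fell (median log2FC -0.67), with a sum of 87.7 to 89.6 CPM in E6.5 duct and 115 to 119 CPM in E4.5-Post. NR5A1 and CYP11A1 stand in the adrenal and gonad lists as well, and the part of such cells in their fall was not tested.

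Transport genes of epithelia had 7 of 24 higher and 6 lower, or 3 lower without the first E4.5-Post library (median log2FC 0.27). CALB1 (calbindin), a cytosolic calcium buffer of transporting epithelia, had 1573, 1446 and 1429 CPM in E6.5 duct, against 294, 211 and 209 CPM in E4.5-Post (log2FC 2.65 ± 0.13, FDR 7.62e-10). TRPV6, a calcium channel of such epithelia, had 274, 272 and 252 CPM in E6.5 duct, against 76.4, 68.9 and 69.8 CPM in E4.5-Post (log2FC 1.90 ± 0.12). The subunit SCNN1A of the epithelial sodium channel (log2FC 1.26 ± 0.072) rose, and SCNN1G was not a DEG (0.48 ± 0.079). The salt transporter SLC12A1 of the loop of Henle (30.9 ± 3.81 CPM in E6.5 duct and 112 ± 30.9 CPM in E4.5-Post; log2FC -1.84 ± 0.17) and the carbonic anhydrase CA2 (96.7 ± 9.56 CPM in E6.5 duct and 247 ± 16.5 CPM in E4.5-Post; log2FC -1.34 ± 0.088) fell.

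Genes of podocytes were among the steepest falls at sizeable levels. Of 14 tested podocyte markers 7 fell and 1 rose (median log2FC -1.02), and their sum was 1551 to 1656 CPM in E6.5 duct and 3071 to 3589 CPM in E4.5-Post. PTPRO (chromosome 1, positions 62781686 to 62930932 on the plus strand), a phosphatase of podocytes, had 11.3, 15.9 and 18.04 CPM in E6.5 duct, against 311, 364 and 287 CPM in E4.5-Post (log2FC -4.41 ± 0.18, FDR 1.70e-10). Its highest E6.5 duct library was far below any E4.5-Post library. PODXL (podocalyxin), which coats podocytes but is also found on mesothelium and vessels, had 213 ± 8.49 CPM in E6.5 duct and 635 ± 54.3 CPM in E4.5-Post (log2FC -1.57 ± 0.069). MAGI2 (log2FC -2.43 ± 0.12) and CLIC5 (log2FC -2.42 ± 0.17) fell, and SYNPO (synaptopodin) rose (38.3 ± 1.30 CPM in E6.5 duct and 10.9 ± 0.756 CPM in E4.5-Post; log2FC 1.82 ± 0.071). LMX1B, a LIM homeobox factor that podocytes need, had 1.11, 1.70 and 2.01 CPM in E6.5 duct, against 46.1, 57.7 and 43.9 CPM in E4.5-Post (log2FC -4.94 ± 0.23, FDR 6.19e-10).

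PTPRQ (chromosome 1, positions 39960864 to 40064069 on the plus strand), a phosphatase related to PTPRO, had 9.36, 21.0 and 22.6 CPM in E6.5 duct, against 652, 719 and 581 CPM in E4.5-Post (log2FC -5.20 ± 0.28, FDR 1.87e-09). On the same strand just before it lie LOC107052834, with 2.08 ± 0.567 CPM in E6.5 duct and 93.7 ± 10.9 CPM in E4.5-Post (log2FC -5.50 ± 0.21), and LOC107052588, with 0.791 ± 0.470 CPM in E6.5 duct and 44.9 ± 6.07 CPM in E4.5-Post (log2FC -5.85 ± 0.30), so that 3 genes in a row fell by similar factors. With neighbours on 1 strand, reads that run past the annotated end of a gene can be counted for the next one, and this was not tested.

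Tubule genes changed in both directions, and most were not DEGs. Of 28 mesonephric tubule markers 9 fell and 4 rose (median log2FC -0.23), and their sum was 3471 to 4016 CPM in E6.5 duct and 3008 to 3735 CPM in E4.5-Post. CALB1 was a large part of it in E6.5 duct, and the sum without CALB1 was lower in E6.5 duct than in E4.5-Post. LRP2 (megalin), an uptake receptor of the proximal tubule, had 273, 308 and 422 CPM in E6.5 duct, against 924, 897 and 737 CPM in E4.5-Post (log2FC -1.34 ± 0.14, FDR 1.87e-06). Its partner CUBN (cubilin) had 227, 259 and 375 CPM in E6.5 duct, against 400.2, 318 and 293 CPM in E4.5-Post (log2FC -0.22 ± 0.15) and was not a DEG. The nucleoside transporter SLC28A3 had 1.82, 2.63 and 4.29 CPM in E6.5 duct, against 88.5, 109 and 86.3 CPM in E4.5-Post (log2FC -5.03 ± 0.25). HNF4A, a factor of proximal tubules, had 34.1 ± 7.52 CPM in E6.5 duct and 84.5 ± 11.2 CPM in E4.5-Post (log2FC -1.30 ± 0.15). The sodium-phosphate transporter SLC34A1 of the proximal tubule rose (85.4 ± 30.01 CPM in E6.5 duct and 38.4 ± 8.85 CPM in E4.5-Post; log2FC 1.16 ± 0.21). Transcripts of these tubule receptors were thus present in every E6.5 duct library, though the duct was dissected away from the mesonephros, while PTPRO was low in them. Of 14 Wolffian duct markers, several of which the Müllerian duct or the tubules share, 5 rose and 3 fell (median log2FC 0.21), with a sum of 2776 to 3012 CPM in E6.5 duct and 1547 to 1627 CPM in E4.5-Post. CALB1 stands in this list too, with a mean of 1483 CPM in E6.5 duct and 238 CPM in E4.5-Post, and carried most of the difference between these sums. The gene groups above that kidney or Wolffian duct also express were measured with transcripts of tubule and Wolffian duct markers present. Which cells these transcripts came from, and their part in those groups, was not tested.

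Other developmental regulators that fell were named after their values were seen. SIM1, a bHLH-PAS factor of kidney and brain, had 47.4, 43.2 and 39.9 CPM in E6.5 duct, against 181, 209 and 183 CPM in E4.5-Post (log2FC -2.12 ± 0.095). The Iroquois factors IRX1 (1.31 ± 0.398 CPM in E6.5 duct and 9.01 ± 1.25 CPM in E4.5-Post; log2FC -2.78 ± 0.25) and IRX2 (0.659 ± 0.260 CPM in E6.5 duct and 8.39 ± 0.200 CPM in E4.5-Post; log2FC -3.67 ± 0.28), which pattern the kidney tubule of frogs, fell, as did POU3F3, a factor of the distal nephron in the mouse (9.37 ± 0.976 CPM in E6.5 duct and 34.6 ± 3.22 CPM in E4.5-Post; log2FC -1.87 ± 0.15). ACE, the angiotensin-converting enzyme, had 17.8 ± 4.67 CPM in E6.5 duct and 119 ± 13.6 CPM in E4.5-Post (log2FC -2.73 ± 0.19) and AGTR1, the angiotensin receptor, 6.90 ± 0.624 CPM in E6.5 duct and 36.8 ± 3.88 CPM in E4.5-Post (log2FC -2.41 ± 0.12). LIN28B, which blocks maturation of the let-7 microRNA in early development, had 30.4, 27.3 and 30.4 CPM in E6.5 duct, against 111, 128 and 129 CPM in E4.5-Post (log2FC -2.05 ± 0.075). TRIM71, itself a let-7 target, had 32.1 ± 1.83 CPM in E6.5 duct and 102 ± 10.5 CPM in E4.5-Post (log2FC -1.65 ± 0.11). LIN28A (log2FC -2.02 ± 0.12) fell likewise, and HMGA2, another let-7 target, went the opposite way (168 ± 4.14 CPM in E6.5 duct and 81.5 ± 2.53 CPM in E4.5-Post; log2FC 1.06 ± 0.10).

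Skeletal muscle genes were low in both tissues and lower in E6.5 duct. Of 23 markers 17 fell and none rose (median log2FC -1.77; 1 was higher at an unadjusted edgeR p under 0.05, and none by voom or DESeq2), and their sum was 46.3 to 56.9 CPM in E6.5 duct and 83.3 to 153 CPM in E4.5-Post. MYOG (myogenin) had 0.676, 0.481 and 0.315 CPM in E6.5 duct, against 1.105, 1.73 and 1.81 CPM in E4.5-Post (log2FC -1.62 ± 0.35). MYOD1, the master factor of muscle, had 0.540, 0.777 and 0.158 CPM in E6.5 duct, against 1.36, 2.08 and 1.70 CPM in E4.5-Post (log2FC -1.77 ± 0.36). The somite gene PAX3 fell as well (log2FC -1.22 ± 0.33). MYF5 and MYF6, also among the fallen markers, lie beside PTPRQ. The part of reads from PTPRQ in their counts was not tested. E4.5-Post was dissected with mesentery and no muscle is named among its parts, so that the label and these markers differ in that detail.

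Globin genes changed in both directions. Of 16 red blood cell genes 4 rose and 7 fell (median log2FC -0.41), with a sum of 1060 to 1204 CPM in E6.5 duct and 2921 to 3765 CPM in E4.5-Post. The embryonic globins HBZ (59.2, 53.7 and 64.97 CPM in E6.5 duct, against 1546, 1213 and 1295 CPM in E4.5-Post; log2FC -4.50 ± 0.19) and HBBR (105 ± 5.66 CPM in E6.5 duct and 725 ± 98.7 CPM in E4.5-Post; log2FC -2.77 ± 0.16) fell, and the adult beta globin HBBA rose (log2FC 6.44 ± 0.45). HBE1, named as an epsilon globin, rose too, with 41.2, 43.9 and 35.7 CPM in E6.5 duct, against 2.73, 1.31 and 1.46 CPM in E4.5-Post (log2FC 4.47 ± 0.25). It lies between HBBR and HBBA on the chromosome, and whether the name fits the gene was not checked. HBA1 was not a DEG (360.1 ± 23.2 CPM in E6.5 duct and 446 ± 75.2 CPM in E4.5-Post; log2FC -0.30 ± 0.13). Among 18 leukocyte markers 6 rose and 1 fell (median log2FC 0.36), with a sum of 170 to 184 CPM in E6.5 duct and 193 to 209.8 CPM in E4.5-Post, and the macrophage receptor CSF1R was not a DEG (log2FC 0.53 ± 0.068). Of 34 markers of neural crest, neurons and glia 7 rose and 6 fell, or 3 without the third E6.5 duct library (median log2FC 0.025), with a sum of 685 to 688 CPM in E6.5 duct and 647 to 659 CPM in E4.5-Post, and the neuronal tubulin TUBB3 rose (log2FC 1.501 ± 0.072) while the crest receptor EDNRB fell (log2FC -1.85 ± 0.11). Germ cell markers (3 of 11 higher, 4 lower, median log2FC -0.11) summed to 32.6 to 34.9 CPM in E6.5 duct and 46.2 to 48.3 CPM in E4.5-Post, and markers of hindgut endoderm (1 of 9 higher, 5 lower, median log2FC -0.79) to 59.8 to 70.0 CPM in E6.5 duct and 116 to 139.8 CPM in E4.5-Post.

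Genes of cell division were slightly lower. Of 42 mitosis genes 9 fell and none rose (median log2FC -0.47; none was higher at an unadjusted edgeR p under 0.05, or by voom or DESeq2), and their sum was 5046 to 5355 CPM in E6.5 duct and 6777 to 7284 CPM in E4.5-Post. AURKA, a kinase of the mitotic spindle, had 63.4, 61.9 and 62.4 CPM in E6.5 duct, against 119.6, 129 and 127 CPM in E4.5-Post (log2FC -0.99 ± 0.066, FDR 1.80e-08), MKI67, a general marker of cycling cells, 237, 205 and 214 CPM in E6.5 duct, against 355, 400.0 and 360.1 CPM in E4.5-Post (log2FC -0.75 ± 0.066). CCNA2 (cyclin A2) had 69.9 ± 3.35 CPM in E6.5 duct and 130.3 ± 5.60 CPM in E4.5-Post (log2FC -0.89 ± 0.053). In none of them did the tissues overlap. Of 40 genes of DNA replication 3 fell and none rose (median log2FC -0.24), where 3 were higher at an unadjusted edgeR p under 0.05 and voom and DESeq2 called none. The share that fell was below that of all tested genes. RRM2, which makes deoxyribonucleotides, had 196 ± 3.36 CPM in E6.5 duct and 411 ± 3.64 CPM in E4.5-Post (log2FC -1.06 ± 0.056), whereas the clamp PCNA (log2FC -0.18 ± 0.063) and the helicase subunit MCM2 (log2FC -0.051 ± 0.053) were not DEGs. Of 21 genes of cell cycle inhibition and growth arrest 2 rose and 1 fell, or 2 without the third E6.5 duct library or without the second or the third E4.5-Post library (median log2FC 0.022). CDKN1C, an inhibitor of cyclin-dependent kinases, had 35.1, 44.2 and 39.5 CPM in E6.5 duct, against 11.1, 13.7 and 10.9 CPM in E4.5-Post (log2FC 1.75 ± 0.12, FDR 1.71e-08).

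Abundant housekeeping genes were among the largest losses in CPM. CLTC, the clathrin heavy chain, had 495 ± 15.1 CPM in E6.5 duct and 954 ± 74.3 CPM in E4.5-Post (log2FC -0.94 ± 0.066). MYH9, a non-muscle myosin, had 865 ± 27.4 CPM in E6.5 duct and 1439 ± 75.7 CPM in E4.5-Post (log2FC -0.72 ± 0.062). Several were chaperones, so that 29 tested chaperone genes were gathered after their values were seen, of which 12 fell and 3 rose (median log2FC -0.56). The cytosolic HSPA8 had 1304, 1263 and 1217 CPM in E6.5 duct, against 2208, 2214 and 2085 CPM in E4.5-Post (log2FC -0.77 ± 0.071). The mitochondrial HSPD1 had 528, 546 and 557 CPM in E6.5 duct, against 1116, 1119.8 and 1027 CPM in E4.5-Post (log2FC -0.99 ± 0.065). HSPE1 (log2FC -0.70 ± 0.062), the partner of HSPD1, HSPH1 (log2FC -1.11 ± 0.059) and HSPA5 (log2FC -0.89 ± 0.05), the chaperone of the endoplasmic reticulum, fell too, and the 3 risen genes were the small heat shock proteins HSPB1 (log2FC 1.36 ± 0.10), HSPB7 (log2FC 0.73 ± 0.11) and HSPB8 (log2FC 1.19 ± 0.10).

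**Figure D4:**
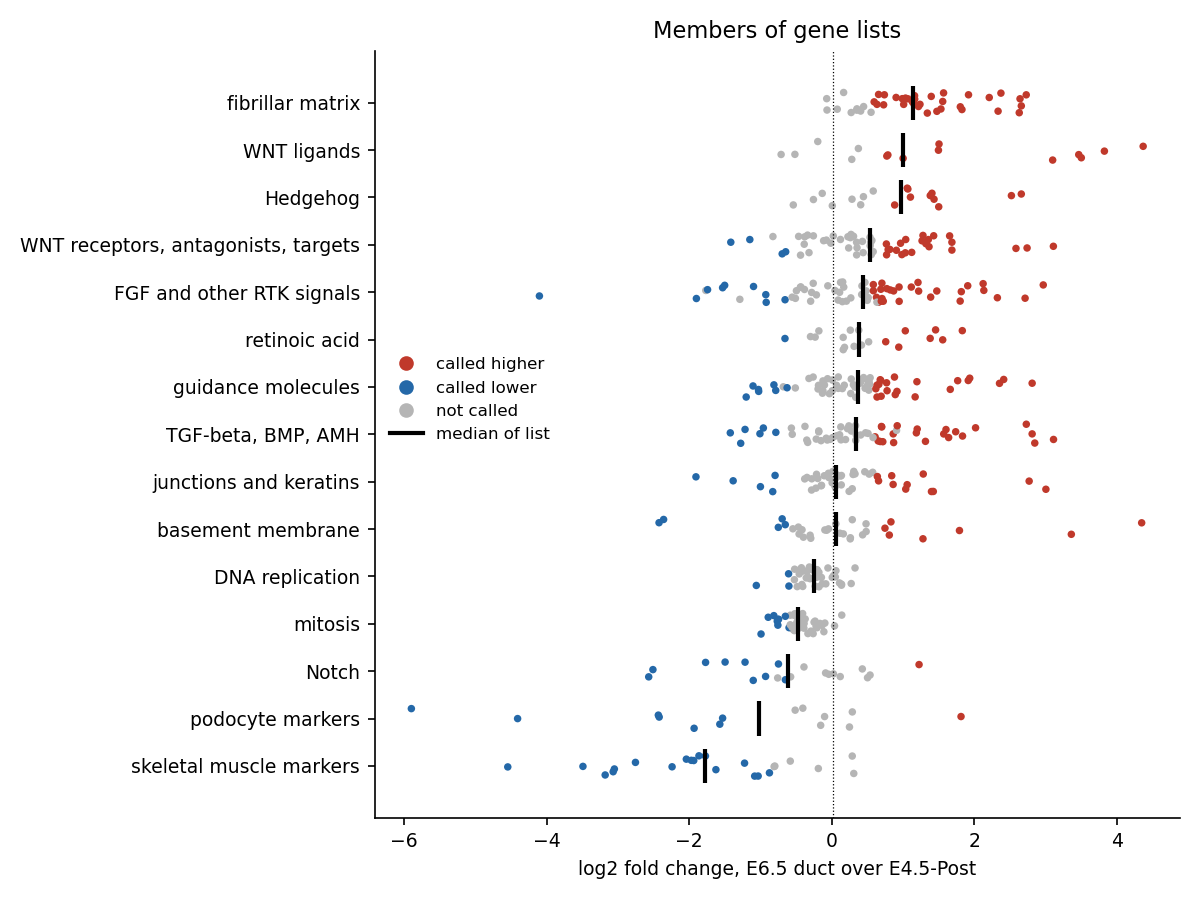
Each point is the log2FC, E6.5 duct over E4.5-Post, of 1 tested member of a gene list, coloured by its call, and the bar is the median of the list. Medians run from 1.15 in fibrillar matrix to -1.77 in skeletal muscle markers, and the dotted line is the median of all tested genes (0.014).

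Of 2151 tested lncRNA genes 722 were DEGs (33.6%), 504 of them higher and 218 lower. Among 14362 protein coding genes 3452 were DEGs (24.0%), 2215 of them higher and 1237 lower. LOC101748608, on the Z chromosome, and among the 6 lncRNAs with the largest rise, had 64.1, 63.8 and 64.9 CPM in E6.5 duct, against 4.90, 4.10 and 4.63 CPM in E4.5-Post (log2FC 3.83 ± 0.14). LOC112529963 had 10.4, 9.73 and 10.6 CPM in E6.5 duct, against 0.405, 0.283 and 0.591 CPM in E4.5-Post (log2FC 4.58 ± 0.21). LOC101751111 had 2.98 ± 1.602 CPM in E6.5 duct and 0.168 ± 0.0801 CPM in E4.5-Post (log2FC 4.14 ± 0.65). Among the lncRNAs that fell, LOC421238 had 0.111 ± 0.0406 CPM in E6.5 duct and 2.29 ± 0.316 CPM in E4.5-Post (log2FC -4.32 ± 0.30) and LOC101750167 0.222 ± 0.0534 CPM in E6.5 duct and 2.55 ± 0.488 CPM in E4.5-Post (log2FC -3.50 ± 0.32). The roles of these lncRNAs are not given in the files.

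Some DEGs of 1 direction lay next to each other. There were 14 runs of at least 6 neighbouring tested genes that all rose (12 runs) or all fell (2 runs), the longest of 8 genes. How many such runs the order of genes gives without any relation between neighbours was not computed, and the runs were looked for after the fits. A run of 8 on chromosome Z from 25949702 to 26572231 held DMRT1, DMRT3, DMRT2, SMARCA2, VLDLR, a lipoprotein receptor, and 3 genes without names. A run of 7 on chromosome 7 from 22301660 to 22421843 held IHH, WNT10A and WNT6 beside CRYBA2, FEV, CDK5R2 and CYP27A1. On chromosome 2 from 32650957 to 32718308 the run was the posterior end of the HOXA cluster with EVX1, and on chromosome 1 from 39843114 to 40086326 a run of 6 that fell held PTPRQ with its neighbours described above and the muscle genes MYF5 and MYF6. The other falling run, from 136159345 to 136276840 on chromosome 1, held POU3F3 and 6 genes without names.

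The series also holds the tissues in between. E4.5-Ant, the anterior part of the same urogenital systems with mesonephros and the duct rudiment, and E5.5 duct stood between the compared tissues for many genes, in means over 2 and 3 libraries. Of the 3 E5.5 duct libraries 1 has a cell type label that names the mesonephric kidney instead of the duct its title gives, and which count column it is cannot be told. The 2 E4.5-Ant libraries differed widely in posterior HOX genes, with 6.07 ± 8.34 CPM for HOXA10 and 1.30 ± 1.84 CPM for HOXA11. RUNX1 had 3.97 ± 0.194 CPM in E4.5-Post, 24.0 ± 3.19 CPM in E4.5-Ant, 52.4 ± 7.27 CPM in E5.5 duct and 109 ± 0.886 CPM in E6.5 duct. Its level was thus already above E4.5-Post in E4.5-Ant, and so was that of HTRA3, with 9.43 ± 0.867 CPM in E4.5-Post, 25.8 ± 0.119 CPM in E4.5-Ant, 130.2 ± 31.4 CPM in E5.5 duct and 256 ± 12.4 CPM in E6.5 duct. FOXE1 was not higher in E4.5-Ant, with 10.7 ± 0.442 CPM in E4.5-Post, 8.40 ± 0.604 CPM in E4.5-Ant, 49.4 ± 8.94 CPM in E5.5 duct and 181 ± 10.1 CPM in E6.5 duct. SMARCA2 was alike in the E4.5 tissues, with 258 ± 11.2 CPM in E4.5-Post, 255 ± 5.51 CPM in E4.5-Ant, 1026 ± 215 CPM in E5.5 duct and 2288 ± 169 CPM in E6.5 duct, and both genes were higher in E5.5 duct. Among the genes that fell, PTPRO had 321 ± 39.2 CPM in E4.5-Post, 289.6 ± 40.5 CPM in E4.5-Ant, 39.2 ± 8.93 CPM in E5.5 duct and 15.1 ± 3.41 CPM in E6.5 duct, so that it was high in the E4.5 tissues and low in the duct tissues. SIM1 differed between the E4.5 tissues as well, with 191 ± 15.2 CPM in E4.5-Post, 89.7 ± 9.05 CPM in E4.5-Ant, 77.9 ± 8.24 CPM in E5.5 duct and 43.5 ± 3.79 CPM in E6.5 duct. LIN28B had 123 ± 10.4 CPM in E4.5-Post, 86.0 ± 0.241 CPM in E4.5-Ant, 47.2 ± 3.02 CPM in E5.5 duct and 29.4 ± 1.77 CPM in E6.5 duct, and its mean was lower at each tissue in this order. Of the 2739 risen DEGs, 2679 had a higher mean in E5.5 duct than in E4.5-Post, and 1219 had means that were higher at each of the 4 tissues in turn. Of the 1458 fallen DEGs, 1365 had a lower mean in E5.5 duct, and 762 had means that were lower at each in turn. Without 1 E5.5 duct library in turn, the counts of means in order were 1154 to 1224 for the risen and 703 to 790 for the fallen DEGs. These counts use the E4.5-Post libraries that also chose the genes and are descriptive.

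**Figure D5:**
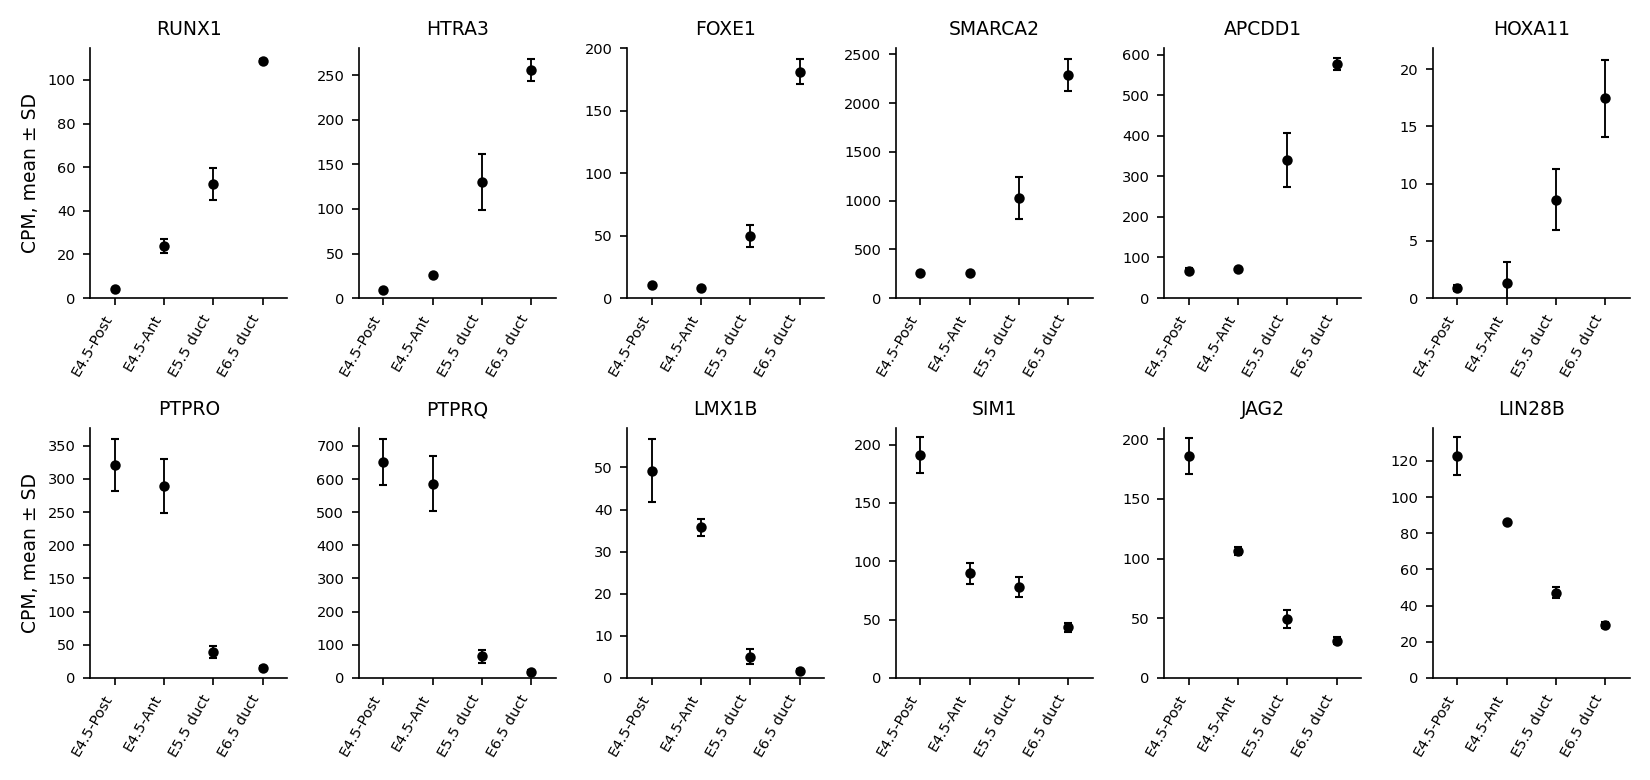
Mean CPM with its SD in E4.5-Post (n = 3), E4.5-Ant (n = 2), E5.5 duct (n = 3) and E6.5 duct (n = 3) for 6 genes that rose and 6 that fell. RUNX1, HTRA3, SIM1, JAG2 and LIN28B are among those that differ between the E4.5 tissues. FOXE1, SMARCA2 and APCDD1 are close to E4.5-Post in E4.5-Ant and higher in both duct tissues. HOXA11 differs widely between the 2 E4.5-Ant libraries (1.30 ± 1.84 CPM).

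The comparison of E5.5 duct over E4.5-Ant shares no library with that of E6.5 duct over E4.5-Post, although E4.5-Ant and E4.5-Post were cut from the same embryos. Both comparisons came from 1 fit with a shared estimate of the spread, so that their calls are not independent. In E5.5 duct over E4.5-Ant 1295 genes rose (7.80% of the tested) and 866 fell (5.22%). Of the 2739 genes that rose in E6.5 duct 871 also rose there, which was 31.8% of the E6.5 duct list and 67.3% of the E5.5 duct list, and 79 fell. Of the 1458 genes that fell in E6.5 duct 421 also fell there, or 28.9% of the E6.5 duct list and 48.6% of the E5.5 duct list, and 31 rose. Without 1 E5.5 duct library in turn, 779 to 892 genes rose and 372 to 459 fell in both. The median log2FC in E5.5 duct over E4.5-Ant was 0.41 over the genes that rose in E6.5 duct and -0.38 over those that fell.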

How the data were processed

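RNA was measured in 3 pooled libraries of E6.5 duct and 3 of E4.5-Post. Per the study's methods, stranded mRNA libraries were aligned with STAR through RNAsik. The whole-number counts of reads per gene were deposited by the authors without normalization, made with featureCounts 1.6.2 over whole genes on the gene's strand (GRCg6a). All 12 columns name a tissue of the samples, so columns of no sample numbered 0. Coordinates are those of the files, and chromosome names came from matching symbols with a RefSeq table of GRCg7b.

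Counts were fitted in R 4.3.3 with edgeR 4.0.16 (quasi-likelihood, TMM, filterByExpr), with limma 3.58.1 and DESeq2 1.42.0 as alternatives. Python 3.11.15, pandas 2.3.3 and matplotlib 3.10.9 served for tables and plots. The fit used 11 libraries, as 1 E4.5-Ant library with 42.1% of its counts on rRNA genes was set aside. FDR follows Benjamini and Hochberg over all tested genes, DEGs were called at the limits of the study (FDR up to 0.05, log2FC beyond 0.585 in size), and SE is the size of the log2FC divided by the square root of F. The p-values measure the spread between pools of embryos, with an estimate shared by all tissues of the fit, also those outside the comparison. A gene without counts in a tissue was set against a floor of 3 counts, and a gene with few counts is given as a ratio with an exact interval, which covers counting error only. The fit was tested on simulated data, in which 200 of 16377 genes differed, all of them in E6.5 duct alone. It called 23 of 67 genes changed 1.5-fold, which is the fold limit itself, 56 of 67 changed 2-fold and 63 of 66 changed 4-fold. False calls numbered 4. In the data 25.3% of the tested genes were DEGs, a far larger share than was changed in the simulation. The FDR limit is stricter where few genes differ, so these counts do not carry over to the data. A gene that was not called can thus still differ by a factor near the limit.

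The genes named were, among DEGs without overlap of the tissues, the 12 largest rises and falls with at least 5 CPM in the higher tissue, the 10 largest gains and losses in CPM, the 6 largest rises and falls of lncRNAs with at least 2 CPM, and up to 5 per direction in each list with at least 1 CPM. Other members of lists are named with their values. Of the genes this rule gives, some are left out of the text. The comparison, the genes and the lists were chosen with earlier results of these data known. Alternatives were another test, scaling, filter on low values, set of genes or libraries, the fold limit as the null, the library number as a block, and leaving out each library. Leaving out each E5.5 duct library was added after the data were seen.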

Additional observations from a re-analysis of the deposited data

How the results depend on the processing

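The count of DEGs lay between 3455 and 4373 under voom, DESeq2, other scalings, other filters, protein coding genes alone, no hemoglobin and rRNA genes, 6 libraries or 12, against 4197. Without 1 library in turn it ranged from 4028 to 4129. Tested against the fold limit itself, 2426 genes passed, 1638 higher and 788 lower, and 367 lncRNAs in place of 722, while at a mean of at least 1 CPM 416 lncRNAs passed, as fewer were tested. Library numbers did not pair the samples (correlations of -0.17, 0.12 and -0.07), and the fit with the replicate block gave 4195 DEGs, 2739 higher and 1456 lower. Of the 205 named DEGs, 15 lost the call against the fold limit, 2 under DESeq2 and none without 1 library. Only CDH1 and ACTA2, neither a DEG, changed sign: CDH1 had a log2FC of -0.001 under DESeq2 and under its size factors, -0.002 with library size only, -0.016 with 12 libraries and -0.040 to 0.042 without 1 library, and ACTA2 -0.038 to 0.011 without 1 library. Of 76 list counts, 22 moved by over 1.5 times against the fold limit and 17 under another setting, most of them counts of 7 or fewer. The precision rests on 3 pools per compared tissue and on a spread estimated over all 11 libraries of the fit, and genes with few counts have uncertain folds.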
